A study of Mus musculus with 12 samples.

Results

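Heme is the iron-carrying ring of cytochromes, catalase and the cytochrome P450 enzymes, and the liver is its main site of synthesis outside the erythroid cells of the marrow. Its synthesis starts in mitochondria with 5-aminolevulinate synthase, passes through the cytosol and ends in mitochondria with the insertion of iron. Alas1 encodes the rate-limiting synthase of non-erythroid cells, whose transcript is known to be lowered by heme, and heme oxygenase opens the ring again in breakdown. The 9 genes described here are Alas1, Alad, Uros, Urod, Cpox, Ppox and Fech of synthesis and Hmox1 and Blvrb of breakdown. They were chosen by name, with earlier results on these arrays known, among them the wide spread of Alas1. All 9 were measured, by 1 probe set each, out of 19505 genes with a symbol and 22206 probe sets in all.

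Liver RNA came from adult male C57BL/6J mice aged 4 to 5 months, 1 array per mouse. UCP1-KO dams, which lack the brown fat uncoupling protein, were mothers of the 6 mice on arrays 7 to 12, and WT dams of the 6 mice on arrays 1 to 6. Sires of both groups were heterozygous, and every son is labelled heterozygous (HET), so the label that separates the groups is the genotype of the mother. The parent that passed on the allele lacking Ucp1 cannot be told apart from it. All were kept at 23 °C on standard chow with free access to water. Values are log2 signals, on which a difference of 1 is a 2-fold difference. Litters and dams are not labelled, so brothers may be among the mice of a group, and each p-value reflects only the variation among the animals sampled.

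The negative control probe sets give a floor for dim signals: their median averaged 6.21 in sons of UCP1-KO dams and 6.39 in sons of WT dams. The arrays of UCP1-KO dams lay between 5.96 and 6.36. Among WT dams, arrays 1 and 2 stood at 6.14 each and arrays 3 to 6 between 6.41 and 6.62. All 9 hepatocyte markers measured lay above this floor, Alb at 19.69 ± 0.02 in sons of UCP1-KO dams and 19.59 ± 0.17 in sons of WT dams (SD, n = 6 each). The array of each mouse is bulk tissue, in which fewer cells of a type and less RNA per cell cannot be told apart.

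Alas1 is transcribed from a promoter in which nuclear respiratory factor 1 sites were described in the rat. In the mouse (RefSeq, GRCm38.p6, minus strand) the window from 250 bases before to 50 after the downstream Alas1 start held 2 matches to the consensus motif of that factor, searched on both strands. The pair is shown because Alas1 carries the widest spread of the 9 genes. The match is in capitals and 10 bases of context on each side are in lower case, at chr9:106247935-106247964 for site 1 and chr9:106247906-106247935 for site 2, with the first base of the match at -224 and -195 from the start.
Alas1 site 1: gcttcggcgcGCGCGTGCGCgcggcaggcc
Alas1 site 2: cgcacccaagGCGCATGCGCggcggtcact
Site 1 reads the motif on the opposite strand and site 2 reads it on both. Counted from the other Alas1 start, which lies upstream, the first bases of the same matches are at 0 and 29. Their place relative to a start therefore depends on the start chosen. Of the 7 genes of the 9 with a promoter window, Alas1 and Uros, 2 in all, held a match, against 5.19% of all 27025 genes with a window. The E-box CACGTG was found in 3 of the 7, Alad, Uros and Urod, against 8.09% of all genes. The cyclic AMP element TGACGTCA, the nuclear receptor half-site AGGTCA and the antioxidant element TGACNNNGC were found in 0 of the 7, against 2.03%, 18.1% and 14.0% of all genes. Hmox1 and Fech had no window, so neither was searched for any of these motifs. A match is a description of letters only, and the motifs were not tested against expression.

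Alas1 differed more between mice than all but 24 of the 22206 probe sets. In sons of UCP1-KO dams it read 16.03, 12.88, 14.06, 12.01, 15.27 and 15.92 on arrays 7 to 12, and in sons of WT dams 16.09, 12.49, 14.48, 16.26, 15.16 and 15.68 on arrays 1 to 6. UCP1-KO-dam arrays 10 and 8 and WT-dam array 2 lay lowest, so both groups held mice at each end and overlapped almost completely. From the lowest array to the highest the signal spanned 19.1-fold, 16.2-fold within the sons of UCP1-KO dams and 13.7-fold within those of WT dams. The standard deviation over the 12 arrays was 1.51, where the median probe set had 0.29 and the 99th percentile was 0.72. Of the variance of Alas1, 94.7% lay within the groups. Alas1 lay above the negative controls on 12 of 12 arrays. The gene was chosen for this spread, which is given as a description with no test.

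**Figure D1:**
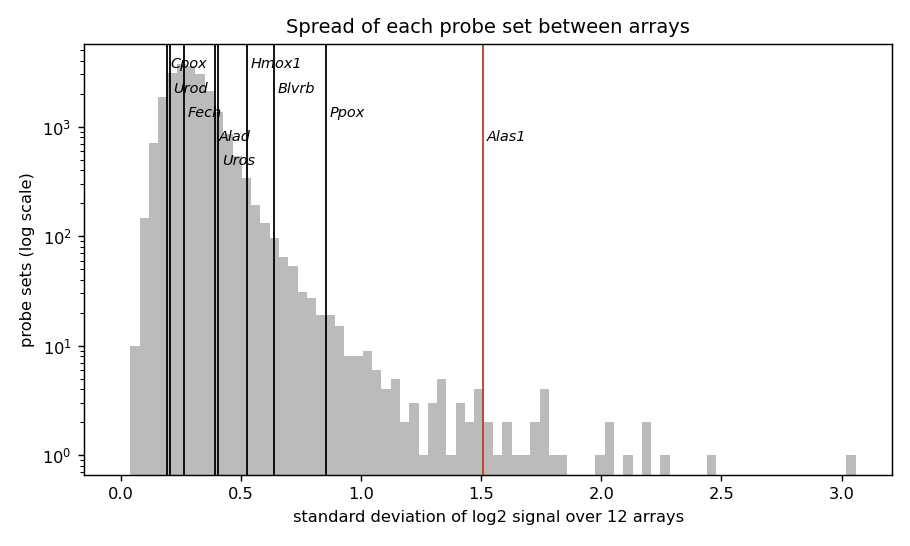
Number of probe sets (log scale) by the standard deviation of their log2 signal over the 12 arrays, with the 9 heme genes marked by vertical lines. Alas1 lies at 1.51 in the far tail, Ppox at 0.85, and Cpox and Urod at 0.19 and 0.20, left of the median of 0.29.

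The other 8 genes were steadier. Ppox had a standard deviation of 0.85, Blvrb 0.64 and Hmox1 0.52, each above the 90th percentile of 0.44. Uros with 0.40 and Alad with 0.39 lay between that mark and the median. Fech with 0.26, Urod with 0.20 and Cpox with 0.19 varied less than the median probe set.

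Of the 9 genes, 0 passed the comparison of sons of UCP1-KO dams with sons of WT dams (limma, Benjamini-Hochberg adjusted over all probe sets, adjusted p = 0.116 to 0.991), where 0.036% of all probe sets passed, 0.0045% higher and 0.0315% lower in sons of UCP1-KO dams. At an unadjusted p under 0.05 there was 1 of 9, Ppox (lower), where 13.1% of all probe sets stood, 7.08% higher and 6.0% lower. The difference lay below 0 for 7 of the 9 and above it for Fech and Hmox1, with a median of -0.20, while over all probe sets 43.2% lay below 0 and the median was 0.03.

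**Figure D2:**
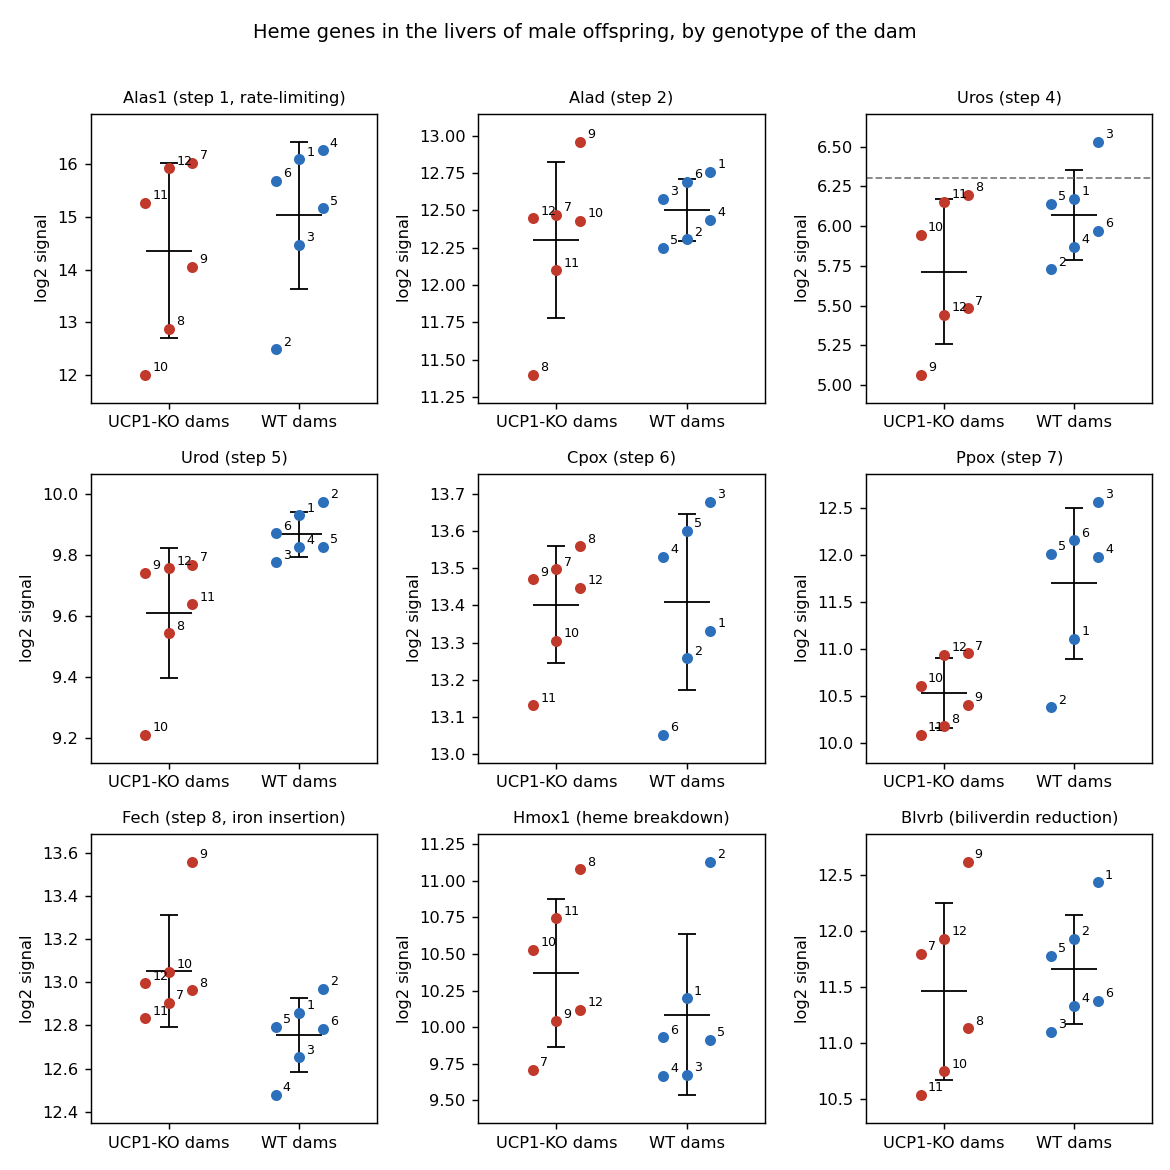
Log2 signal of each heme gene on every array, numbered, in sons of UCP1-KO dams (red, left) and of WT dams (blue, right), with group mean and SD as bars; the dashed line for Uros is the mean negative control median. Alas1 runs from 12.01 to 16.03 in sons of UCP1-KO dams and from 12.49 to 16.26 in sons of WT dams, while WT-dam arrays 3 to 6 hold the 4 highest signals of Ppox.

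At the first step, Alas1 averaged 14.36 ± 1.66 in sons of UCP1-KO dams and 15.03 ± 1.40 in sons of WT dams (SD, n = 6 each). Its log2 difference of -0.67 had a 95% interval of -2.09 to 0.75 (limma adjusted p = 0.716). The value moved with single mice. Among sons of UCP1-KO dams, leaving out array 10 gave -0.20, array 8 gave -0.37 and array 7 gave -1.0. Among sons of WT dams, leaving out array 4 gave -0.42, array 2 gave -1.17, and arrays 3 to 6 together gave 0.070. The last of these fits, chosen after seeing the data, kept only arrays 1 and 2 of the WT dams.

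Alad encodes the cytosolic dehydratase that joins a pair of aminolevulinate molecules. It had a lowest, median and highest signal of 11.40, 12.44 and 12.96 in sons of UCP1-KO dams, against 12.25, 12.51 and 12.76 in sons of WT dams. UCP1-KO-dam array 8 lay lowest and array 9 highest of all 12, so the sons of UCP1-KO dams enclosed the other group. The log2 difference was -0.20 (95% interval -0.62 to 0.22, adjusted p = 0.712), -0.02 when UCP1-KO-dam array 8 was left out and -0.33 when array 9 was.

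Uros encodes the synthase that closes the porphyrin ring. It was not well measured, because only 2 of 12 arrays lay above their own negative control median. It read 5.07, 5.71 and 6.20 (lowest, median, highest) in sons of UCP1-KO dams, against 5.73, 6.06 and 6.53 in sons of WT dams, with a difference of -0.36 (adjusted p = 0.450) that lies in the range of the negative controls. It came to -0.21 with the negative control median as a covariate, -0.23 when UCP1-KO-dam array 9 was left out and -0.24 when WT-dam arrays 3 to 6 were.

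Urod encodes the next enzyme, which takes carboxyl groups off the ring. Its signal was 9.21, 9.69 and 9.77 (lowest, median, highest) in sons of UCP1-KO dams, against 9.78, 9.85 and 9.98 in sons of WT dams. All 6 arrays of UCP1-KO dams lay below all 6 of WT dams, though array 7 at 9.77 and WT-dam array 3 at 9.78 nearly met. Urod was the 1 of 9 genes without overlap, where 1.05% of all probe sets had none. The log2 difference of -0.26 did not pass (95% interval -0.52 to 0.0037, adjusted p = 0.389), and it stayed between -0.34 and -0.18 in the 21 alternatives run. The signals spanned 1.47-fold among sons of UCP1-KO dams and 1.15-fold among sons of WT dams.

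Cpox, the oxidase that follows, read 13.13, 13.46 and 13.56 (lowest, median, highest) in sons of UCP1-KO dams, against 13.05, 13.43 and 13.68 in sons of WT dams. The groups overlapped fully, and the difference of -0.01 had the narrow interval of -0.29 to 0.28 (adjusted p = 0.991). Its sign turned in 8 of 21 alternatives, quantile normalization among them (0.0080).

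Ppox encodes protoporphyrinogen oxidase, the last step but 1, and showed the largest difference of the 9 between the groups. It read 10.09, 10.51 and 10.96 (lowest, median, highest) in sons of UCP1-KO dams, against 10.38, 12.00 and 12.57 in sons of WT dams. The groups overlapped through WT-dam array 2 at 10.38, and WT-dam array 1 at 11.11 lay just above the sons of UCP1-KO dams. The log2 difference was -1.17 (95% interval -1.78 to -0.56), a level 2.25-fold lower, with an adjusted p of 0.116 in limma. With WT-dam array 2 left out the difference was -1.43 and passed (limma adjusted p = 0.0133), as it did under none of the other 20 alternatives. WT-dam arrays 3 to 6, at 12.57, 11.98, 12.01 and 12.16, are also the 4 arrays with the brightest negative controls. Without them, a setting chosen after seeing the data, the difference was -0.21 (limma adjusted p = 0.894). That fit kept only WT-dam arrays 1 and 2. Arrays 3 to 6 held the 4 highest Ppox signals, so leaving them out had to shrink the difference and cannot show why it arose. With the negative control median as a covariate the difference was -0.70. The part of background signal in the difference was not tested.

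Fech encodes ferrochelatase, which places iron in the ring. Its signal was 12.83, 12.98 and 13.56 (lowest, median, highest) in sons of UCP1-KO dams, against 12.48, 12.79 and 12.97 in sons of WT dams. All 6 sons of UCP1-KO dams lay above the WT-dam median and 3 above the WT-dam maximum. The log2 difference of 0.29 did not pass (95% interval -0.0012 to 0.59, adjusted p = 0.384). It was 0.19 when UCP1-KO-dam array 9 was left out, and 0.14 when WT-dam arrays 3 to 6 were and with the negative control covariate.

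In breakdown, Hmox1, the stress-induced heme oxygenase, read 9.71, 10.32 and 11.08 (lowest, median, highest) in sons of UCP1-KO dams, against 9.67, 9.92 and 11.13 in sons of WT dams. The highest arrays came from both groups, UCP1-KO-dam arrays 8, 11 and 10 and WT-dam array 2. The difference was 0.28 (95% interval -0.24 to 0.81, adjusted p = 0.669), 0.05 with the negative control covariate. Leaving out UCP1-KO-dam array 8 gave 0.14, WT-dam array 2 gave 0.49 and WT-dam arrays 3 to 6 gave -0.29. Blvrb, a biliverdin and flavin reductase, read 10.53, 11.46 and 12.62 (lowest, median, highest) in sons of UCP1-KO dams, against 11.10, 11.58 and 12.44 in sons of WT dams. Its difference of -0.20 (95% interval -0.84 to 0.44, adjusted p = 0.827) moved between -0.43 (UCP1-KO-dam array 9 left out) and -0.01 (array 11 left out), and was -0.61 with the covariate and -0.72 when WT-dam arrays 3 to 6 were left out.

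**Figure D3:**
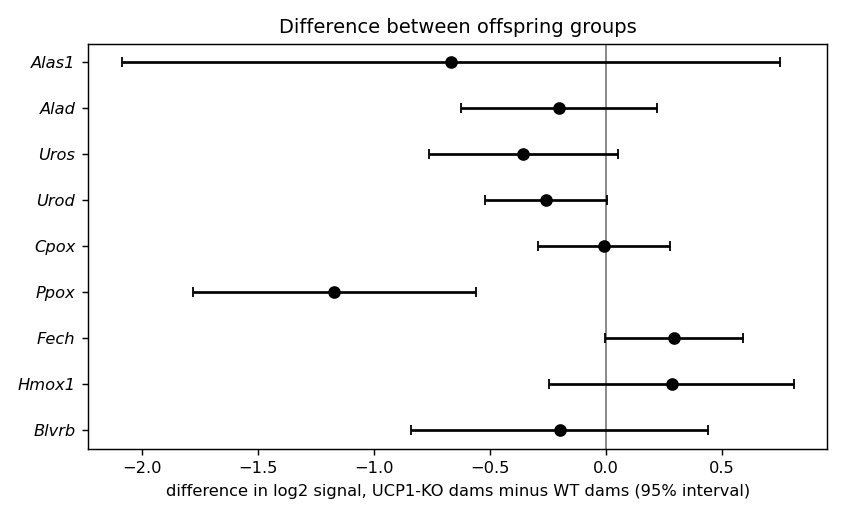
Difference in log2 signal of each heme gene, sons of UCP1-KO dams minus sons of WT dams, with its 95% interval from limma (n = 6 each). Ppox at -1.17 has an interval that leaves out 0 (-1.78 to -0.56), and Alas1 has the widest, -2.09 to 0.75.

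Whether the other heme genes followed Alas1 across the 12 mice was asked with 8 correlations. Hmox1 ran opposite to it, with Pearson's r = -0.69 (permutation p = 0.0134, adjusted p = 0.107 over the 8) and Spearman's rho = -0.56 (permutation p = 0.0627), so it did not pass the adjustment. The inverse relation held its sign within the sons of UCP1-KO dams (r = -0.59, exact p = 0.221, n = 6) and within those of WT dams (r = -0.77, exact p = 0.125, n = 6), and without UCP1-KO-dam array 10 and WT-dam array 2, the mice farthest from the Alas1 median (r = -0.57). The 3 mice lowest in Alas1 were among the 4 highest in Hmox1. UCP1-KO-dam array 11 stood off this line, with Alas1 at 15.27 and Hmox1 at 10.74.

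**Figure D4:**
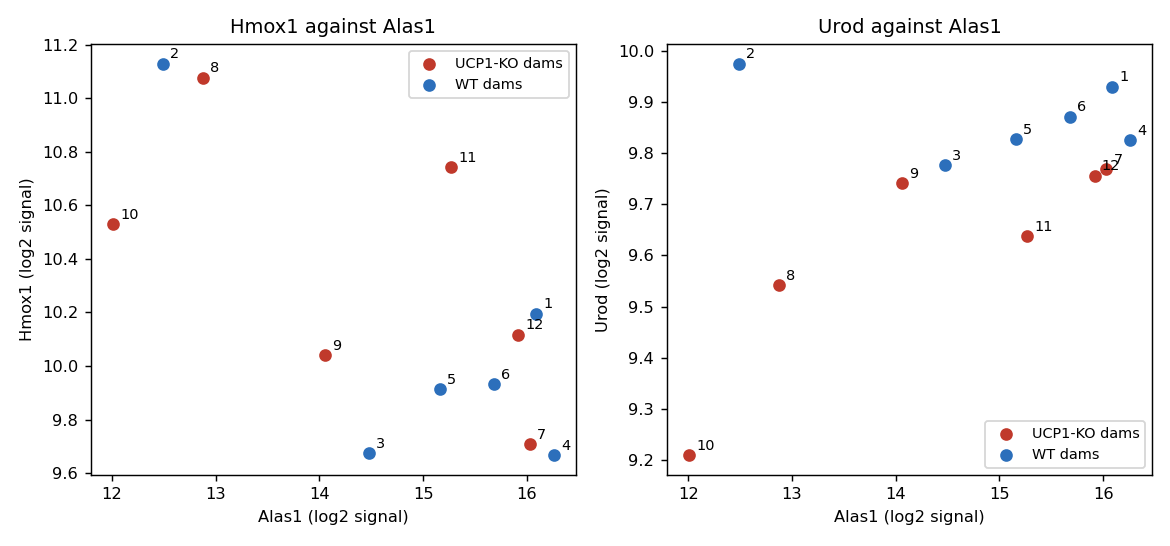
Hmox1 (left) and Urod (right) against Alas1, log2 signals, 1 numbered point per mouse, red for sons of UCP1-KO dams and blue for sons of WT dams. Hmox1 is highest where Alas1 is low (r = -0.69), and Urod runs with Alas1 among sons of UCP1-KO dams (r = 0.85) while WT-dam array 2 stands apart at low Alas1 and high Urod.

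Urod had r = 0.54 with Alas1 (permutation p = 0.0608, adjusted p = 0.243, rho = 0.36 with permutation p = 0.247). Within the sons of UCP1-KO dams it was 0.85 (exact p = 0.0153, n = 6), and within those of WT dams -0.41 (exact p = 0.446, n = 6). The difference between these was not tested. With WT-dam array 2 left out, where Urod was highest and Alas1 lowest of the WT-dam arrays, r was 0.86 and passed the adjustment (adjusted p = 0.0126). With UCP1-KO-dam array 10 left out, r was 0.17. The other 6 had r = 0.46 for Ppox, 0.35 for Alad, 0.24 for Blvrb, 0.02 for Cpox, -0.05 for Uros and -0.42 for Fech (permutation p = 0.131 to 0.948, adjusted p = 0.349 to 0.948, rho = -0.52 to 0.43 with permutation p = 0.0854 to 0.903). The 19.1-fold span of Alas1 was thus not matched by a span of that size in any later step measured here, where the widest, of Ppox, was 5.58-fold.

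Among all 36 pairs of the 9 genes, 0 passed the adjustment and 7 had an unadjusted p under 0.05. The strongest was Ppox with Hmox1, at r = -0.77 (permutation p = 0.00434, adjusted p = 0.156 over the 36) and rho = -0.80 (permutation p = 0.00238). It held within the sons of UCP1-KO dams at -0.80 and within those of WT dams at -0.93, and was -0.75 without WT-dam arrays 3 and 6. Of the remaining pairs, Uros with Fech had r = -0.68, Ppox with Fech -0.63, Alad with Hmox1 -0.62, Urod with Blvrb 0.59 and Uros with Blvrb -0.58 (adjusted p = 0.160 to 0.240). Without the mice farthest from the Uros median, arrays 9 and 3, Uros with Fech came to -0.19 and rests on them. Uros with Blvrb came to -0.32 without the same mice. Uros lay above its own negative control median on only 2 of 12 arrays, so its pairs rest on dim signals. Without the 2 mice farthest from the median of the gene named first, Alad with Hmox1 came to -0.46, Urod with Blvrb to 0.45 and Ppox with Fech to -0.58.

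Hmox1 is also a macrophage gene, and Kupffer cell markers differed between the same mice. All 12 measured macrophage markers lay, on average, above the negative controls. The mean of the 12, taken around each gene's own mean, ran from -0.33 to 0.27 in sons of UCP1-KO dams and from -0.33 to 1.07 in sons of WT dams. WT-dam array 2, highest in Hmox1, was highest in this mean as well at 1.07, and UCP1-KO-dam arrays 8 and 11 followed with 0.27 and 0.20. UCP1-KO-dam array 10, whose Hmox1 was 10.53, lay at -0.33. Marco, a scavenger receptor of Kupffer cells, read 8.62 on array 8 of the UCP1-KO dams and 9.10 on array 2 of the WT dams. On the other 10 arrays it read 6.54 to 7.82. Marco is 1 of the 12 and does not stand for them. Within sons of UCP1-KO dams its r with Alas1 was -0.39, with Spic at -0.24 and Timd4 at -0.05. All the other markers were positive there, from 0.06 for C1qc to 0.74 for C1qb. The part of Kupffer cells in the Hmox1 signal was not tested. Between the dam groups 0 of the 12 passed, 0 had an unadjusted p under 0.05, and the median difference was -0.0035. The markers named by the rule were Clec4f with -0.25, Adgre1 with 0.20, Cd163 with -0.24 and Marco with 0.26.

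The genes whose pattern over the 12 mice was nearest to Alas1 were sought among 9804 genes whose mean lay above the negative controls, by Pearson's r. The 5 highest were Farsb, a subunit of phenylalanyl-tRNA synthetase, with 0.85, Zfp965 with 0.82, Arhgef26, a guanine nucleotide exchange factor, with 0.82, Dclre1a, of DNA crosslink repair, with 0.82, and Aacs, the acetoacetyl-CoA synthetase, with 0.82. The 5 lowest were Cd86, a costimulatory receptor of antigen-presenting cells, with -0.90, Kyat3, a kynurenine aminotransferase, with -0.87, Ice1 with -0.86, Bcar3 with -0.85 and Clec4a1, a C-type lectin of myeloid cells, with -0.82. Cd86 was dim, above the negative control median of its own array on 7 of 12 arrays, and lay below it on UCP1-KO-dam array 12 and WT-dam arrays 3 to 6. Clec4a1 lay above on 11 of 12 and the other 8 on all 12. With so many genes searched over 12 mice, such values are a description and carry no test. Their own ranges were narrower than the 4.25 of Alas1: the widest were 2.52 for Aacs and 1.43 for Cd86, and the other 8 spanned 0.63 to 1.32. Aacs was lowest on the 3 mice lowest in Alas1, which its choice by r with Alas1 makes likely. It read 8.82 and 9.01 on arrays 10 and 8 of the UCP1-KO dams and 8.17 on array 2 of the WT dams. Its rho with Alas1 was 0.56, and its r without arrays 10 and 2 was 0.61.

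**Figure D5:**
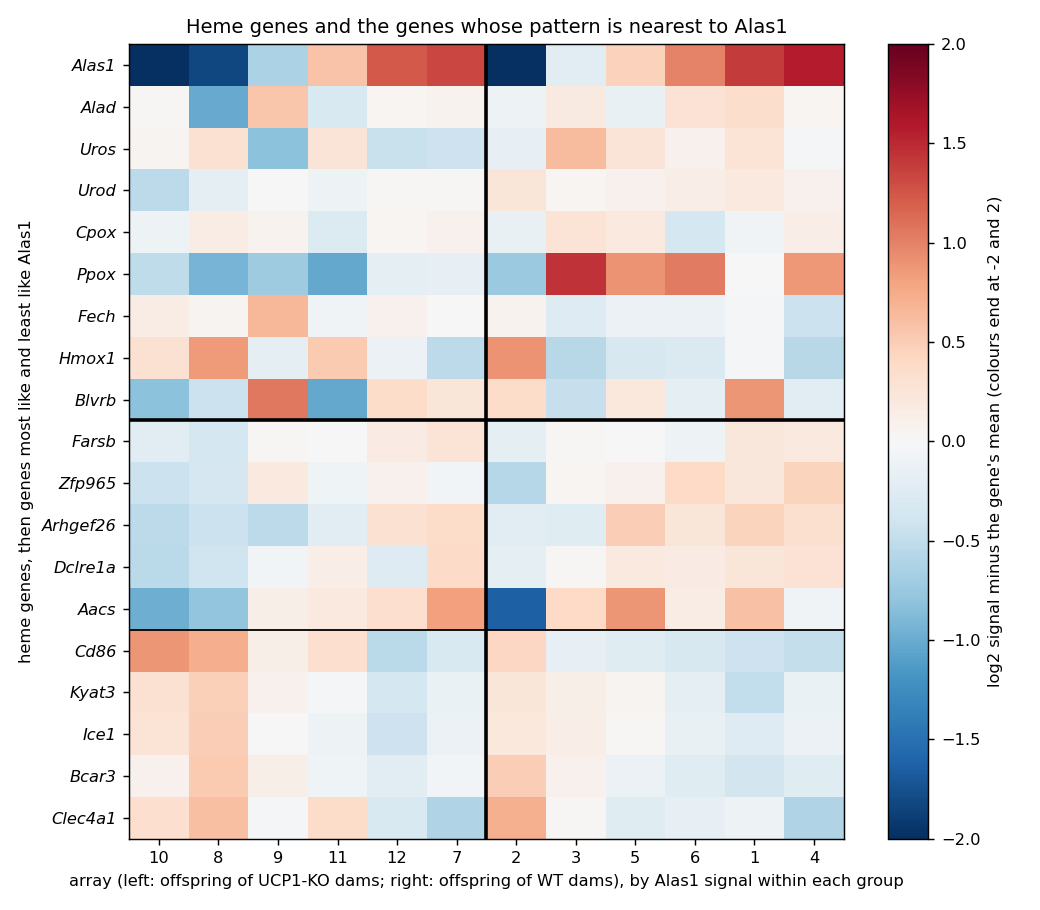
Log2 signal minus the gene's mean for the 9 heme genes (top), the 5 genes most like Alas1 (middle) and the 5 least like it (bottom), with arrays ordered by Alas1 within sons of UCP1-KO dams (left) and sons of WT dams (right). Alas1 reaches the lower end of the colours in both groups and, at its highest, stays short of the upper end. Ppox is high on WT-dam arrays 3 to 6. Cd86, above the negative controls on 7 of 12 arrays, runs opposite to Alas1 (r = -0.90).

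Genes known to act on Alas1 or Hmox1 were measured for all 16 listed. With Alas1 their r ran from -0.45 to 0.46. The lowest was that of Nrf1, the nuclear respiratory factor (permutation p = 0.140, rho = -0.19). The highest was that of Bach1, the heme-sensing repressor of Hmox1 (permutation p = 0.137, rho = 0.16). Without arrays 10 and 2, r was -0.36 for Nrf1 and -0.01 for Bach1. Ppargc1a, the coactivator that raises Alas1 in fasting, had r = 0.21 (rho = 0.11), Nr1i3, the drug receptor CAR, 0.25 (rho = 0.18) and Nr1d1, the heme-binding clock repressor, 0.25 (rho = 0.08), with permutation p = 0.431 to 0.816 for these values. The pooled value of Nr1d1 joined opposite signs, r = 0.90 within sons of UCP1-KO dams and -0.50 within sons of WT dams, a difference that was not tested. Ppargc1a had 0.32 and 0.16 within the same groups, and Nr1i3 0.21 and 0.07. Over the 150 genes of all lists, a family formed after values had been seen, 0 passed (adjusted p = 0.698 at the lowest) and 8 had an unadjusted p under 0.05. Among 150 genes unrelated to Alas1, a threshold of 0.05 would give about as many by chance. The genes named next are therefore a description and not a finding about each gene. The strongest were Bmp6, the iron-responsive ligand upstream of hepcidin, with r = -0.71 (permutation p = 0.00904, rho = -0.56 with permutation p = 0.0631, and -0.77 without arrays 10 and 2), Marco with -0.65 (permutation p = 0.0196, rho = -0.59), Pklr, the liver pyruvate kinase, with 0.65 (permutation p = 0.0216, rho = 0.63) and Slc25a39, a mitochondrial glutathione carrier linked to heme synthesis, with 0.64 (permutation p = 0.0238, rho = 0.58). Within sons of UCP1-KO dams and sons of WT dams, r was -0.77 and -0.69 for Bmp6, -0.39 and -0.90 for Marco, 0.68 and 0.73 for Pklr, and 0.96 and 0.08 for Slc25a39. Of the other macrophage markers, only Timd4 (-0.05 and -0.88) and Spic (-0.24 and -0.75) were negative in both groups. The rest were positive within sons of UCP1-KO dams, from 0.06 for C1qc to 0.74 for C1qb. Within sons of WT dams they were negative, from -0.92 for Cd5l to -0.58 for C1qc.

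Between the dam groups, 0 of the 16 regulators passed. The difference lay below 0 for 10, with a median of -0.08, and 4 had an unadjusted p under 0.05, 1 higher and 3 lower, where 7.08% and 6.0% of all probe sets were higher and lower. Lonp1 is the mitochondrial protease that degrades the Alas1 protein. It read 11.61 to 11.99 in sons of UCP1-KO dams, against 10.91 to 11.43 in sons of WT dams (log2 difference 0.56, 95% interval 0.29 to 0.83, adjusted p = 0.0944). It was the 1 regulator of 16 whose groups did not overlap, where 1.05% of all probe sets did not, and it was named for its small p. Npas2, a clock factor, had -1.60 (adjusted p = 0.118), Nr1i3 -1.07 (adjusted p = 0.268) and Nfe2l2, the antioxidant factor NRF2, -0.48 (adjusted p = 0.271). Npas2 lay above the negative control median on 8 of 12 arrays.

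Of the 22 measured genes of heme transport, binding and the remaining enzymes, 0 passed, 11 lay below 0 and the median was -0.02, with 5 at an unadjusted p under 0.05, 3 higher and 2 lower, where 13.1% of all probe sets stood. Slc25a28, which encodes mitoferrin 2, the iron importer of mitochondria, read 9.07 to 9.37 in sons of UCP1-KO dams, against 9.49 to 10.06 in sons of WT dams (log2 difference -0.54, 95% interval -0.81 to -0.27, adjusted p = 0.111). It too was named for its small p, and it was the 1 gene of these 22 without overlap, against 1.05% of all probe sets. Slc25a38, the glycine carrier that feeds the first step, had -0.31 (adjusted p = 0.339). Blvra, the main biliverdin reductase, had 0.49 (adjusted p = 0.181), with 8.23 ± 0.29 in sons of UCP1-KO dams and 7.73 ± 0.21 in sons of WT dams (SD, n = 6 each). Flvcr2, a choline and heme-linked transporter, had 0.91 (adjusted p = 0.157), above the negative control median on 8 of 12 arrays.

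Iron genes gave 0 of 20 passed, 6 below 0 and a median of 0.09. At an unadjusted p under 0.05 there were 2 (10.0%), 1 in each direction, where 13.1% of all probe sets stood. Slc39a14, an iron and zinc importer, had -0.42, Bmp6 0.43, the iron exporter gene Slc40a1 0.34 and Slc11a2 -0.31 (adjusted p = 0.334 to 0.433). Of 27 heme-containing enzymes and their partners 19 lay below 0, 0 passed, the median was -0.20 and 7 (25.9%) had an unadjusted p under 0.05, all lower, where 6.0% of all probe sets did. Those of smallest p were the P450 genes Cyp2c54 with -1.02, Cyp2c70 with -0.47, Cyp2c37 with -0.94 and Cyp2c50 with -0.67 (adjusted p = 0.165 to 0.232). Near-identical members of the Cyp2c family may share probes. Of 13 NRF2 targets 0 passed and 3 lay below 0 (median 0.15). An unadjusted p under 0.05 was found for 2 (15.4%), 1 in each direction, against 13.1% of all probe sets. Srxn1 had -0.45, Prdx1 0.29 (1 of 13 without overlap, against 1.05% of all probe sets), Abcc4 0.37 and Nqo1 0.36 (adjusted p = 0.185 to 0.485).

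Of 17 clock genes 0 passed and 7 lay below 0 (median 0.03). An unadjusted p under 0.05 was found for 1 (5.88%), against 13.1% of all probe sets. Beside Npas2, Nr1d2 had 0.36, Per2 -0.42 and Arntl -0.43 (adjusted p = 0.118 to 0.692, Npas2 included). Of 13 fasting and feeding genes 0 passed and 6 lay below 0 (median 0.08). An unadjusted p under 0.05 was found for 3 (23.1%), 2 higher and 1 lower, against 7.08% and 6.0% of all probe sets. Pklr had -2.05, Cpt1a 0.39, Pck1 0.58 and G6pc -0.46 (adjusted p = 0.134 to 0.482). Hepatocyte markers gave 0 of 9 passed, 0 at an unadjusted p under 0.05 and 2 below 0 (median 0.09), with Cps1 at 0.14, Tat at 0.20, Apoa1 at 0.10 and Alb at 0.09 (adjusted p = 0.675 to 0.784).

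Erythroid cells make heme through Alas2, and their markers were checked for that reason. Of the 9 measured here, 6 lay at or below the negative controls, Gata1, Klf1, Epb42, Rhd, Rhag and Ermap, while Slc4a1, Bpgm and Alas2 lay above. Alas2 read 12.15 to 12.63 in sons of UCP1-KO dams, against 12.01 to 12.63 in sons of WT dams, and the groups overlapped. The mean of the 9, around each gene's own mean, stayed within -0.05 to 0.14 in sons of UCP1-KO dams and -0.12 to 0.01 in sons of WT dams. With 6 of the 9 at or below the negative controls, this mean can move little and cannot show that erythroid content was steady. Of the 9, 0 passed and 1 (11.1%) had an unadjusted p under 0.05, against 13.1% of all probe sets. The median difference was 0.04, with Slc4a1 at 0.37, Alas2 at 0.22, Rhag at 0.19 and Rhd at -0.09 (adjusted p = 0.318 to 0.843). The hemoglobin genes listed were not named in the probe annotation used and so were not analysed here.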

How the data were processed

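Liver RNA of 12 mice was measured on 1 array each. The deposited values are log2 signals per probe set, for which the submitters' processing notes name RMA and the Transcriptome Analysis Console as the authors' tools; versions are not given in the sources used here. RMA includes quantile normalization, which would reduce a shift shared by most genes. After 6640 control rows were left out, 22206 probe sets entered a linear model (limma 3.58.1, R 4.3.3, eBayes moderation, two-sided, dam genotype as the only term), with no filter and Benjamini-Hochberg adjustment over all of them. The threshold was an adjusted p of 0.05. Symbols came from the platform annotation (1 symbol for 19572 probe sets, with every Entrez identifier in RefSeq, GRCm38.p6). Where a symbol had several probe sets the one of highest mean was used. Correlations used 100000 permutations over 12 arrays, or all orders within a group of 6, two-sided. Of each list, up to 4 genes of smallest p are named, and of the genes like Alas1 the 5 highest and 5 lowest in r. The 9 genes and the 10 other lists were chosen with earlier results of these data known. The fit and the permutation step were tested on simulated data. Alternatives were other normalization, filters and variance models, a negative control covariate and leaving out mice. The labels name no batch. Precision is limited by 6 arrays a group.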

Additional observations from a re-analysis of the deposited data

Results flagged for a closer look

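Across the 18 sets of 6 values (9 heme genes in each group), 2 held a mouse whose gap to its nearest neighbour was a larger share of the group's range than Dixon's limit of 0.625 for 6 samples. Chance flags about 1 in 20 such sets. Fech on UCP1-KO-dam array 9 read 13.56, above the other 5 sons of UCP1-KO dams at 12.83 to 13.05. Hmox1 on WT-dam array 2 read 11.13, above the other 5 sons of WT dams at 9.67 to 10.20. The same mouse was highest in the Kupffer cell marker mean and lowest of its group in Alas1. The difference of Fech between the groups without array 9 was 0.19, and that of Hmox1 without array 2 was 0.49.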

How the results depend on the processing

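The count of heme genes called was 0 in 20 of 21 alternatives and ran from 0 to 1 as single mice were left out, the 1 being Ppox without WT-dam array 2. The count over all probe sets, 8, was 32 without the dimmer 50% of probe sets, 22 with a variance trend and robust estimation, 2 with the negative control median as a covariate, 0 without WT-dam arrays 3 to 6 (chosen after seeing the data) and 1 to 112 as single mice were left out. At an unadjusted p under 0.05 the 2906 probe sets became 1909 without the dimmer 50% and 1561 without WT-dam arrays 3 to 6. The sign turned for Cpox after quantile normalization (0.0080), with the covariate (0.069), without WT-dam arrays 3 to 6 (0.11) and in single-mouse omissions (-0.078 to 0.047). It also turned without WT-dam arrays 3 to 6 for Alas1 (0.070) and Hmox1 (-0.29); the cause was not tested. The spread of Alas1, 1.51, stayed within 1.31 to 1.58 over 15 alternatives. The count of genes correlated with Alas1 was 0 in 16 of 17 alternatives and ran from 0 to 1 as single mice were left out, the 1 being Urod without WT-dam array 2. Uros could not be tested without the dimmer 50% of probe sets. No paired analysis was possible because the array numbers do not repeat between the groups. Genes near the negative controls, Uros above all, have no reliable size of difference.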
